A study of Mus musculus with 5 samples.

Results

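The nuclear genes of mitochondrial complex I were examined in the hippocampal pyramidal layer of newborn mice. They were taken as every gene whose probe annotation carries a symbol starting with Ndufa, Ndufb, Ndufc, Ndufs or Ndufv, which takes in the Ndufaf assembly factors and Ndufab1. The symbols found 43 genes on 63 of the 44290 array features. Of these, 42 genes were measured on at least 3 of the 5 arrays and were tested among 28035 genes and unnamed features. The proteins are known as 6 core subunits, 29 accessory subunits and 7 assembly factors. The last gene, Ndufa4, carries an old complex I name but encodes a subunit of complex IV. Ndufa4 is kept in the counts and medians given below for complex I genes as a whole, and is in none of these 3 classes.

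Complex I, or NADH:ubiquinone oxidoreductase, takes electrons from NADH to ubiquinone in the inner mitochondrial membrane and pumps protons as it does so. Its core subunits are conserved from bacteria, carry the flavin and the iron-sulfur clusters or form the proton channels, and are encoded partly by the nucleus and partly by mitochondrial DNA. Accessory subunits surround the core and hold the matrix and membrane arms together, and assembly factors bind intermediates without staying in the finished enzyme. Neurons depend heavily on this pathway for their ATP.

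The study compared male CD1 mouse pups on postnatal day 3 after prenatal exposure to cocaine or to saline. Cocaine-treated dams received 20 mg/kg cocaine hydrochloride under the skin 2 times a day from gestational day 8 to 19, control dams received saline on the same schedule and were pair-fed, and the litters of both groups were raised by surrogate dams. RNA came from the pyramidal layer of fields C1 to C3, cut out by laser microdissection, and the labels call the arrays preliminary results. On each of 5 two-colour arrays cocaine RNA carried Alexa 647 and saline RNA carried Alexa 546, with no array in the opposite orientation, so that dye and treatment cannot be told apart. The labels do not say whether the 5 arrays were separate litters, and p-values therefore measure only the spread between arrays, which may be technical. The values are log2 ratios between the channels, likely of cocaine over saline from the channel order and the form in which the study gives its ratios; the direction is not stated.

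The 5 arrays were of unequal quality. A ratio was measured at 39470, 38208, 36009, 33611 and 19745 features on arrays 1 to 5, the other spots holding an exact 0 or the largest value of the table. On arrays 1 and 2 the median deposited log2 ratio was -2.68 and -2.52, against -0.37, -0.78 and 0.26 on arrays 3 to 5. Log2 ratios of whole numbers up to 30 made up 34% and 38.2% of the values on arrays 1 and 2 and between 85.8% and 86.7% on arrays 3 to 5. Every log2 ratio below is therefore given relative to the median of its own array. No intensities were used here, so neither the level of a gene nor the presence of pyramidal cell markers could be checked. The 10 pyramidal neuron markers tested, the interneuron, astrocyte, oligodendrocyte, microglia and endothelial markers gave no call in either direction. Their median log2 ratios lay between -0.84 and 0.85. Of 3 red cell markers tested, the haemoglobin genes Hba-a1 and Hba-a2 were called higher, each with a mean of 3.26. The other, Alas2, was not called and had a mean of -0.77 (n = 4 arrays). The array medians of that list were 3.90, 5.00, 1.09, 4.14 and 1.70. The part of red cells in the complex I values was not tested.

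Relative to the array median, complex I genes had mostly positive log2 ratios, likely higher after cocaine, a direction that turns when arrays are centred on cytosolic ribosomal protein genes instead (median -0.52). Of 42 genes, 16 were called higher (38.1%) and 0 lower by limma at an adjusted p of 0.05, beside 5.89% and 1.16% of all 28035 genes and features. Values on all 5 arrays were held by 37 of the 42 genes, but by only 11731 of the 28035 genes and features. With only such genes and features tested, 23 of 37 complex I genes were called higher, beside 16.5% of everything so tested. The median log2 ratios in that setting were 1.51 and 0.17. At an unadjusted p under 0.05 by limma, 29 of the 42 genes were higher and 0 lower. The share of everything tested at that threshold was not counted. The median log2 ratio over the 42 genes was 1.51, with quartiles of 0.82 and 1.81, beside -0.14 over everything tested. The mean was above 0 in 40 of 42 genes. Of the 37 genes measured on all 5 arrays, 25 were above the array median on every array (67.6%), which held for 23.0% of all genes so measured, and 0 were below it on every array, beside 6.61%.

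The height of the values differed between arrays. The median over complex I genes was 1.86, 2.28, 1.33, 1.06 and 0.95 on arrays 1 to 5, so that arrays 1 and 2 were highest. Array 2 gave the highest value of the 5 in 24 of 37 genes, and array 5 gave the lowest in 18 and array 4 in 11. In 37 of 42 tested genes the mean over arrays 1 and 2 was above that over arrays 3 to 5. Leaving out array 1 or array 2 brought the number called higher to 0, and leaving out arrays 3, 4 or 5 gave 15, 15 and 18. The median over complex I genes was 1.45 without array 1 and 1.31 without array 2, against 1.51 with all arrays (SD over arrays 0.56). In each case 25 of 42 genes were higher at an unadjusted p under 0.05 by limma, where the share of everything tested was not counted. With either array left out, the whole table also kept few calls, 54 and 61 genes higher. In RNA of a whole dissected layer, a different share of a cell type and a different RNA level per cell cannot be told apart.

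**Figure D1:**
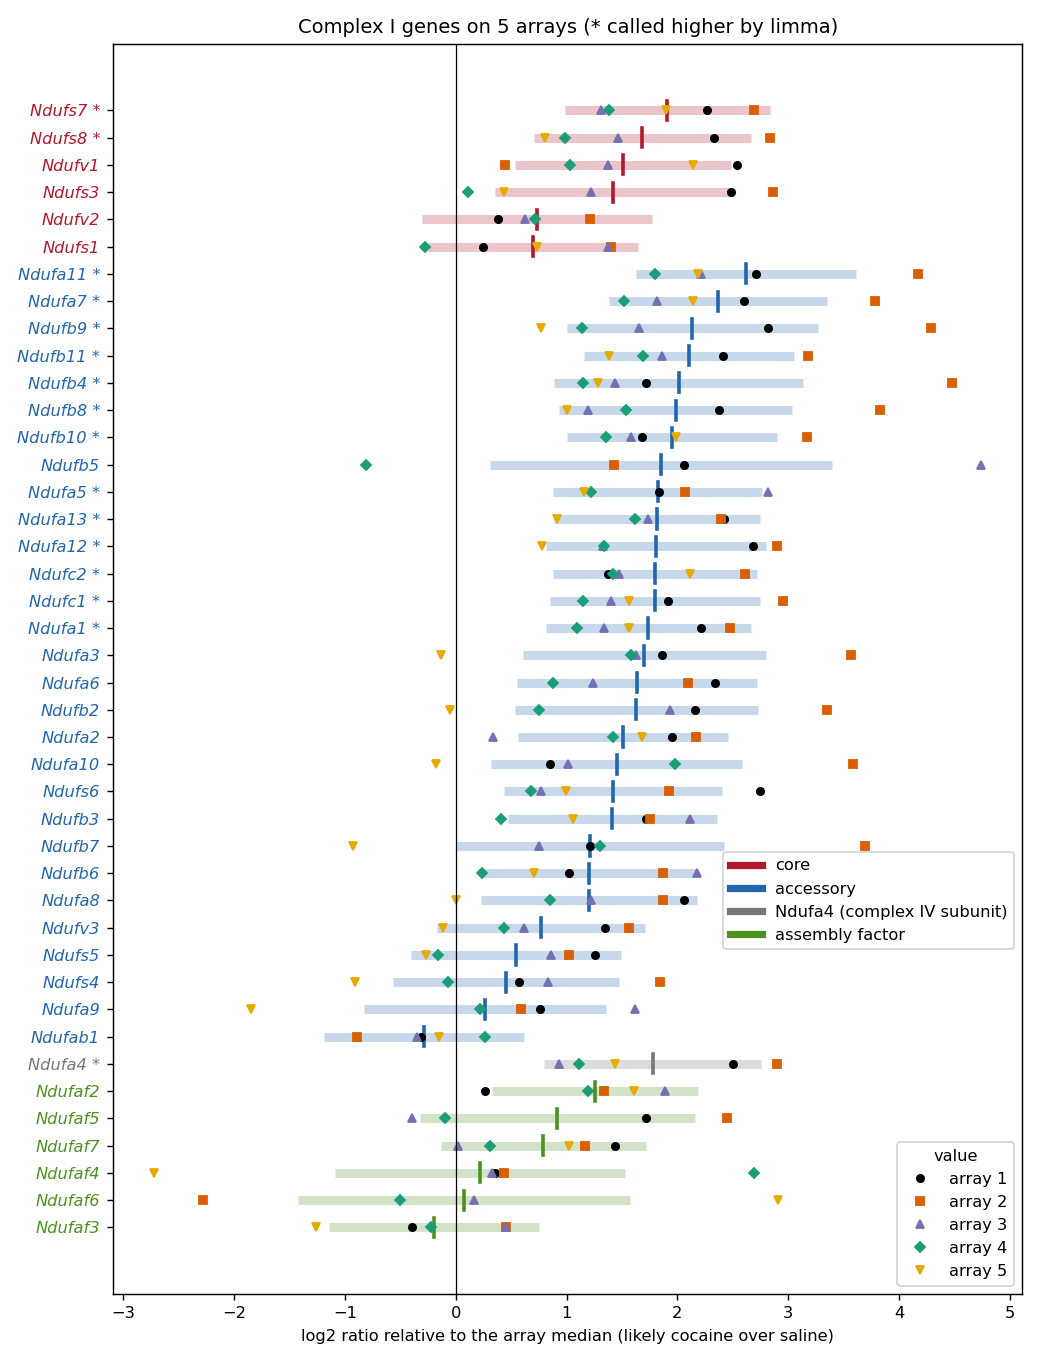
Log2 ratio of each tested complex I gene on each of 5 arrays, relative to the array median (horizontal axis), with genes on the vertical axis grouped and coloured by class. Points are arrays, the vertical tick is the mean, and the pale bar is the 95% interval of the mean. An asterisk marks the 16 genes called higher. Core and accessory genes lie mostly right of 0 and assembly factors around it. These positions hold for this centring only, since the median over all complex I genes is -0.52 when arrays are centred on ribosomal protein genes.

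Among the core subunits, the genes for iron-sulfur proteins next to the quinone site were called higher. Ndufs7, which holds the last iron-sulfur cluster before ubiquinone, had log2 ratios of 2.26, 2.69, 1.31, 1.38 and 1.90 on arrays 1 to 5. All 5 values lay above the array median, and the mean was 1.91 ± 0.59 (SD, n = 5 arrays) with an adjusted p of 0.019. Ndufs8, which holds the clusters that feed it, had values of 2.33, 2.84, 1.47, 0.99 and 0.80. It was high on arrays 1 and 2 and lower on the others, with a mean of 1.68 ± 0.87 (SD, n = 5) and an adjusted p of 0.040. The call of Ndufs8 was lost also without array 3 (adjusted p = 0.066) or array 4 (0.054), where that of Ndufs7 was not.

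The other 4 core genes did not pass the test. Ndufv1, which binds NADH and the flavin, had values of 2.54, 0.45, 1.37, 1.03 and 2.15, and array 2 was here the lowest. Its mean was 1.51 ± 0.84 (SD, n = 5, adjusted p = 0.061). Ndufs3, a matrix arm subunit without a cofactor, had values of 2.48, 2.86, 1.22, 0.11 and 0.44, with a mean of 1.42 ± 1.22 (adjusted p = 0.10). Arrays 1 and 2 stood well above arrays 4 and 5 in this gene. Ndufv2 and Ndufs1, both iron-sulfur subunits of the NADH-oxidising tip, were nearest to the array median. Ndufv2 had values of 0.38, 1.21, 0.62 and 0.72 on arrays 1 to 4 and none on array 5 (mean 0.73 ± 0.35, adjusted p = 0.38). Its values on arrays 1 and 2 average 2 probes, which gave 2.90 and -0.48 on array 2. The Ndufv2 probe measured on 4 arrays had a mean of 1.15 ± 1.17. Ndufs1 had 0.24, 1.40, 1.37, -0.28 and 0.74 (mean 0.70 ± 0.73, adjusted p = 0.36). The core genes with a call and those without overlapped on every array, and no test was made between them. In all, 2 of 6 core genes were called higher (33.3%), with a median of 1.46, and this count was 0 without array 1 or array 2 (medians 1.20 and 1.23) and 1 without array 3 or array 4.

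Accessory subunits held most of the calls. Of 29 genes, 13 were called higher (44.8%) and 0 lower, with a median log2 ratio of 1.70 that became -0.33 on centring by ribosomal protein genes. The 13 means ran from 1.74 to 2.62, with SDs between 0.55 and 1.43 and adjusted p-values between 0.012 and 0.034. Without array 1 or array 2 the count was 0, with the median at 1.60 and 1.39, and without arrays 3, 4 and 5 the count was 13, 13 and 15.

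The highest means were those of Ndufa11, Ndufa7 and Ndufb9. Ndufa11, a membrane arm subunit, had log2 ratios of 2.71, 4.17, 2.21, 1.80 and 2.19 on arrays 1 to 5. Array 2 was the highest and array 4 the lowest, and the mean was 2.62 ± 0.93 (SD, n = 5, adjusted p = 0.012), with a 95% interval from 1.62 to 3.61. Ndufa7, a subunit of the matrix arm, had 2.60, 3.78, 1.81, 1.52 and 2.14, with a mean of 2.37 ± 0.88 (adjusted p = 0.013). Centring by ribosomal protein genes lowers all genes measured on the 5 arrays by the same amount, so that the highest means stay highest. It left Ndufa11 at 0.59 and Ndufa7 at 0.34 (adjusted p = 0.39 and 0.62 by limma). Ndufb9 and Ndufb11 were also left just above 0, at 0.10 and 0.07. Ndufb9, a membrane arm subunit of the LYR family, had 2.82, 4.29, 1.65, 1.14 and 0.77, and its mean of 2.13 ± 1.43 (adjusted p = 0.027) rested more on arrays 1 and 2.

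Membrane arm subunits of the Ndufb and Ndufc series held 7 of the 13 calls. In the Ndufb series, whose proteins build the far part of that arm, 5 of 10 genes were called higher and the median was 1.90. Besides Ndufb9 these were Ndufb11 (2.10 ± 0.71, SD, n = 5), Ndufb4 (2.01 ± 1.40), Ndufb8 (1.99 ± 1.15) and Ndufb10 (1.95 ± 0.71). Ndufb11 had 2.41, 3.18, 1.86, 1.69 and 1.38, all well above the array median. Ndufb8 had 2.38, 3.82, 1.19, 1.54 and 1.00, and Ndufb10 had 1.68, 3.17, 1.58, 1.36 and 1.99. In each of these genes array 2 was the highest. Both Ndufc genes, for small membrane arm subunits, were called higher, Ndufc2 at 1.80 ± 0.55 and Ndufc1 at 1.80 ± 0.70. Ndufc2 had 1.37, 2.61, 1.47, 1.42 and 2.12, so that it varied less between arrays than any other called gene.

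In the Ndufa series 6 of 12 genes were called higher and the median was 1.72. Besides Ndufa11 and Ndufa7 these were Ndufa5, a matrix arm subunit, with 1.84, 2.07, 2.82, 1.22 and 1.16 (mean 1.82 ± 0.68, n = 5), and Ndufa13, also known as GRIM-19, with 2.42, 2.39, 1.74, 1.62 and 0.91 (mean 1.82 ± 0.62). Ndufa12, the matrix arm subunit whose paralog is the assembly factor Ndufaf2, had 2.68, 2.90, 1.33, 1.34 and 0.78 (mean 1.81 ± 0.93). Ndufa1, a small X-linked membrane arm subunit, had 2.21, 2.48, 1.34, 1.09 and 1.57 (mean 1.74 ± 0.59). All 4 were above 0 on each array. The call of Ndufa5 was lost without array 3 (adjusted p = 0.071) and that of Ndufa12 without array 4 (adjusted p = 0.053).

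The remaining 16 accessory genes were not called, with means from -0.29 to 1.85. Ndufb5, a membrane arm subunit, had the highest mean among them and disagreed most between arrays, at 2.06, 1.42, 4.74 and -0.81 on arrays 1 to 4 (SD 2.28, adjusted p = 0.14). Without array 4 it was called (2.74, adjusted p = 0.041). Ndufb7 also changed sign, with 1.22, 3.70, 0.75, 1.30 and -0.93. Ndufa3 and Ndufb2 were below 0 on array 5 alone, at -0.13 and -0.05, and both were called without that array (adjusted p = 0.030 and 0.037). Ndufa2 was called without array 3 (adjusted p = 0.040).

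The lowest accessory genes were Ndufs5, Ndufs4, Ndufa9 and Ndufab1. Ndufa9, a matrix arm subunit near the quinone site, had 0.76, 0.59, 1.62, 0.21 and -1.85, with a mean of 0.27 ± 1.29 (adjusted p = 0.79). Ndufs4, a matrix arm subunit whose loss in mice gives a fatal brain disease, had 0.57, 1.85, 0.84, -0.07 and -0.91 (mean 0.46 ± 1.03). Ndufs5 had 1.26, 1.02, 0.85, -0.16 and -0.27 (mean 0.54 ± 0.70). Ndufab1, the mitochondrial acyl carrier protein, which also serves fatty acid synthesis outside complex I, had -0.31, -0.90, -0.35, 0.27 and -0.16. It was the only accessory gene with a mean below 0, at -0.29 ± 0.42 (adjusted p = 0.72). Ndufs6, a zinc-binding subunit of the matrix arm, and Ndufv3 were not called either, with means of 1.42 ± 0.89 and 0.77 ± 0.69, so that 0 of the 3 accessory genes of the Ndufs series and 13 of the 29 accessory genes as a whole passed the test.

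Assembly factors lay nearer to the array median. Of 6 tested, 0 were called in either direction, a count too small to set against the 5.89% and 1.16% called over everything tested. The median log2 ratio was 0.50, and this became -1.53 on centring by ribosomal protein genes. Ndufaf2, the paralog of Ndufa12, came nearest to a call, with 0.26, 1.34, 1.89, 1.19 and 1.61 and a mean of 1.26 ± 0.62 (SD, n = 5, adjusted p = 0.096). When only genes measured on all 5 arrays were tested, its adjusted p was 0.047. In that setting 23 of 37 complex I genes and 16.5% of everything tested were called higher. Of 18 settings in which Ndufaf2 was tested, it was called in 1. Ndufaf2 was above 0 on all arrays, and array 1 was the lowest. Ndufaf7, an arginine methyltransferase, had 1.44, 1.17, 0.02, 0.31 and 1.02 (mean 0.79 ± 0.60). Ndufaf5, which hydroxylates an arginine of Ndufs7 in human cells, had 1.72, 2.44, -0.39 and -0.10 on arrays 1 to 4 (mean 0.92 ± 1.38). The value depended on the array pair, high on 1 and 2 and just under 0 on 3 and 4.

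The other assembly factors that were tested had means no more than 0.22 from the array median. Ndufaf3 and Ndufaf4 act together early in assembly of the matrix arm. Ndufaf3 had -0.40, 0.45, 0.45, -0.22 and -1.26 (mean -0.20 ± 0.71). Ndufaf4 had 0.36, 0.44, 0.33, 2.69 and -2.72 (mean 0.22 ± 1.93), arrays 4 and 5 lying far apart on either side. That swing came from a single probe, at 4.17 and -2.72 on arrays 4 and 5. Another probe of Ndufaf4, without a value on array 5, had 1.21 on array 4 and a mean of 0.81 ± 0.33 (n = 4). Ndufaf6 had -2.28, 0.17, -0.50 and 2.91 on arrays 2 to 5 (mean 0.07 ± 2.15), again with array 5 far from the others. Ndufaf1, which works on the membrane arm, was measured on 2 arrays only, at -0.47 and -0.70, and was not tested. The 95% intervals of the mean were wide, from -1.09 to 1.53 in Ndufaf4 and from -1.43 to 1.57 in Ndufaf6.

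Array by array, the accessory median exceeded the assembly factor median by 1.56, 1.67, 1.19 and 1.04 on arrays 1 to 4, and lay 0.11 under it on array 5. The core median differed from the accessory median by 0.38, -0.43, -0.09, -0.30 and -0.11, with no fixed sign. Core genes had medians of 2.30, 2.05, 1.34, 0.85 and 0.80 and accessory genes 1.92, 2.48, 1.44, 1.15 and 0.91. Assembly factors had 0.36, 0.81, 0.25, 0.11 and 1.02. The classes share arrays and were chosen with results known, so no test was made between them. Spot quality moved with class: 22.2% of assembly factor spots had no measured ratio, against 11.4% of core and 3.91% of accessory spots and 24.6% of all spots. Among measured values, ratios of small whole numbers made up 68.6% in assembly factors, 54.8% in core and 33.9% in accessory genes, and 62.9% over all features. Such values had a median of 0.25 in assembly factors and 0.83 in accessory genes, and the remaining values had medians of 1.21 and 1.73. Without them the accessory median exceeded the assembly factor value by 0.37, with 1 assembly factor left, and their part in the class difference was not tested.

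**Figure D2:**
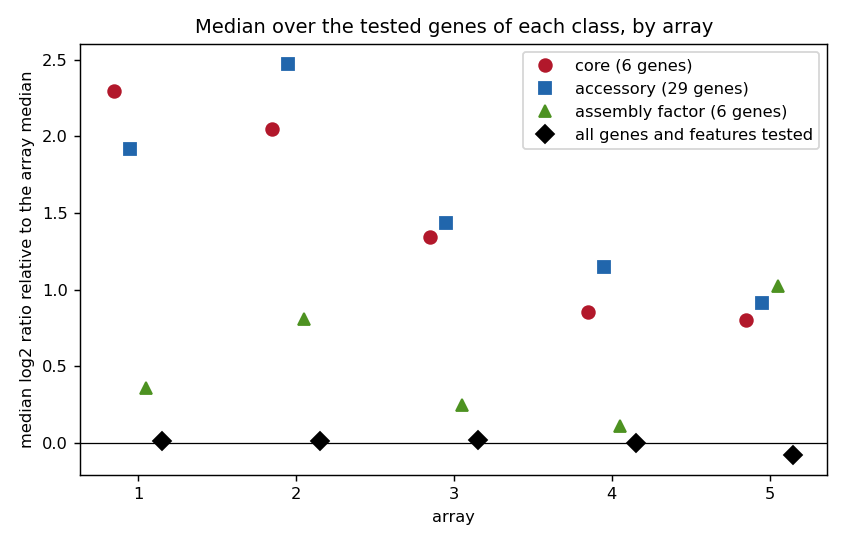
Median log2 ratio over the tested genes of each class (vertical axis, relative to the array median) on each of arrays 1 to 5 (horizontal axis), for 6 core, 29 accessory and 6 assembly factor genes and for all genes and features tested. Core and accessory medians are 0.80 or more on every array and assembly factor medians below them on arrays 1 to 4; centred on ribosomal protein genes, the medians over arrays become -0.57, -0.33 and -1.53.

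Ndufa4, the complex IV subunit that the symbols bring in, lay among the called core and accessory genes. It had 2.50, 2.90, 0.93, 1.11 and 1.44, with a mean of 1.78 ± 0.88 (SD, n = 5), and was called higher (adjusted p = 0.032).

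Where a gene had several probes, these did not always give the same value. Of the 43 genes, 30 had 1 probe, and 11 of the 16 called genes rest on 1 probe. In 12 genes at least 2 probes were measured on 3 or more arrays, and the highest and lowest probe means differed by a median of 0.67. They had opposite signs in 3 genes, which are among the 4 lowest accessory genes. Ndufs5 had probe means of 1.93 ± 0.69 (SD, n = 5) and -0.85 ± 1.04, and Ndufs4 had 1.34 ± 1.26 and -0.43 ± 1.23. The 4 probes of Ndufab1 had means of 1.16 ± 0.19, -0.33 ± 0.84, -1.30 ± 0.85 and -1.71 ± 1.03. The probe with the mean of 1.16 was above the array median on all 5 arrays, at 1.43, 1.22, 0.93, 1.08 and 1.15. The gene values of Ndufs5, Ndufs4 and Ndufab1 are therefore averages over probes that disagree. In Ndufa11 both probes were high, at 2.45 ± 0.80 and 2.78 ± 1.11.

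**Figure D3:**
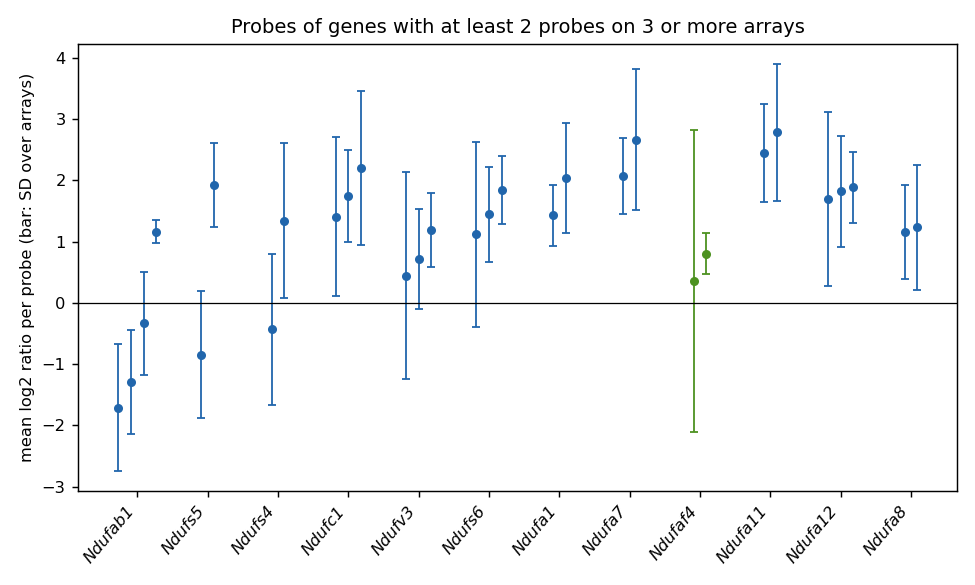
Mean log2 ratio of each probe relative to the array median (vertical axis), with its SD over arrays as a bar, for the 12 genes with at least 2 probes measured on 3 or more arrays (horizontal axis; blue accessory, green assembly factor). Probes of Ndufab1, Ndufs5 and Ndufs4 lie on both sides of 0, and those of the other 9 genes lie above it with this centring.

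The promoters of complex I genes in the reference genome carry sites for known regulators of respiratory genes. Windows from 250 bases before to 50 bases after the start of transcription were read from RefSeq (GRCm38.p6) for 39 of the 43 genes, 41 windows in all. The motif of NRF1, a factor that binds many respiratory promoters, was searched as its core CGCANGCG on both strands and stood in 15 of 41 windows (36.6%), against 8.21% of all 32851 windows. The YY1 motif AAGATGGCG, also read on both strands, stood in 5 windows (12.2%), against 1.4% of all. The ETS motif CCGGAAG, bound by factors such as GABPA, stood in 5 (12.2%), against 8.86%, and TATAAA in 5 (12.2%), against 13.6%. Matches to different motifs overlapped in 0 of the 41 windows. Of the 15 called genes with a window, 6 held the NRF1 core, which 13 of the 39 genes held in all. A match is a run of letters, and binding was not measured. Shown are the stretches before the start of the highest accessory gene and of an assembly factor with the same motif, and 30 bases around the motif in both called core genes, with the motif in capitals. They stand on the + strand at chr17:56717512-56717761 for Ndufa11, chr4:24897833-24898082 for Ndufaf4 and chr10:80249463-80249492 for Ndufs7, and on the - strand at chr19:3912740-3912769 for Ndufs8.
Ndufa11: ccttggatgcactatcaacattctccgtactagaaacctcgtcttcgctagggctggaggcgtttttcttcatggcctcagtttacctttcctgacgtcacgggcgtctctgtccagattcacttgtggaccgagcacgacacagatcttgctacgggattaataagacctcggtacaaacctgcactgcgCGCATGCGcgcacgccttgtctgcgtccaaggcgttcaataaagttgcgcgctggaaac
Ndufaf4: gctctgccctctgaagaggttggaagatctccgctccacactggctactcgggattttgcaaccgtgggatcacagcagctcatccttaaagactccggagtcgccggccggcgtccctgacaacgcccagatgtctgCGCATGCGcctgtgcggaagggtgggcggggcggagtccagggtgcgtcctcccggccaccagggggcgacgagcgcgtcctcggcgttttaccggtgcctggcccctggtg
Ndufs7: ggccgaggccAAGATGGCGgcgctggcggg
Ndufs8: taggctccgcCTTCCGGttgaaccgcatct
The NRF1 core began 59 bases before the start in Ndufa11, whose mean log2 ratio was 2.62, and 112 bases before it in Ndufaf4, whose mean was 0.22. The YY1 motif of Ndufs7 began at base 25 after the start, and the ETS motif of Ndufs8, read on the opposite strand, at base 16.

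Other complex I genes do not carry the Nduf symbols. Of a list of 20, which adds assembly factors named otherwise and the subunits encoded in mitochondrial DNA, 13 were measured and 1 was called higher (7.69%, beside 5.89% of everything tested), with a median log2 ratio of -0.10. That gene was ND4L, a membrane arm subunit encoded in the mitochondrial genome, with 2.85, 4.36, 2.72, 1.03 and 1.42 (mean 2.48 ± 1.32, SD, n = 5, adjusted p = 0.014). The call was lost without array 1 or array 2. The others were assembly factors of the nuclear genome and gave no call, from Acad9, which binds early membrane arm intermediates, at -1.10 ± 0.86 (n = 4) to Ecsit, its partner, at 1.27 ± 0.70 (n = 5, adjusted p = 0.098).

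Complexes II to V, which take up the electrons and make ATP, gave 29 of 48 genes called higher and a median of 1.83. In complex V, the ATP synthase, 15 of 17 were called higher with a median of 2.13. The counts in complexes II, III and IV were 3 of 4, 4 of 9 and 7 of 18. Genes for mitochondrial mass and matrix enzymes gave 4 of 19 with a median of 0.95. The mitochondrial ribosome gave 4 of 77 with a median of 0.57, a share of 5.19% beside the background of 5.89%, and regulators of mitochondrial biogenesis gave 0 of 13 with a median of -0.17. The cytosolic ribosome, outside the organelle, gave 51 of 75 with a median of 1.95, above that of complex I. Without array 1 the count was 0 in complexes II to V and in the mitochondrial ribosome and 1 in the cytosolic ribosome, and without array 2 it was 0 in all 3. On centring by ribosomal protein genes these counts were 0, and the medians of complexes II to V and of the mitochondrial ribosome became -0.21 and -1.47.

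**Figure D4:**
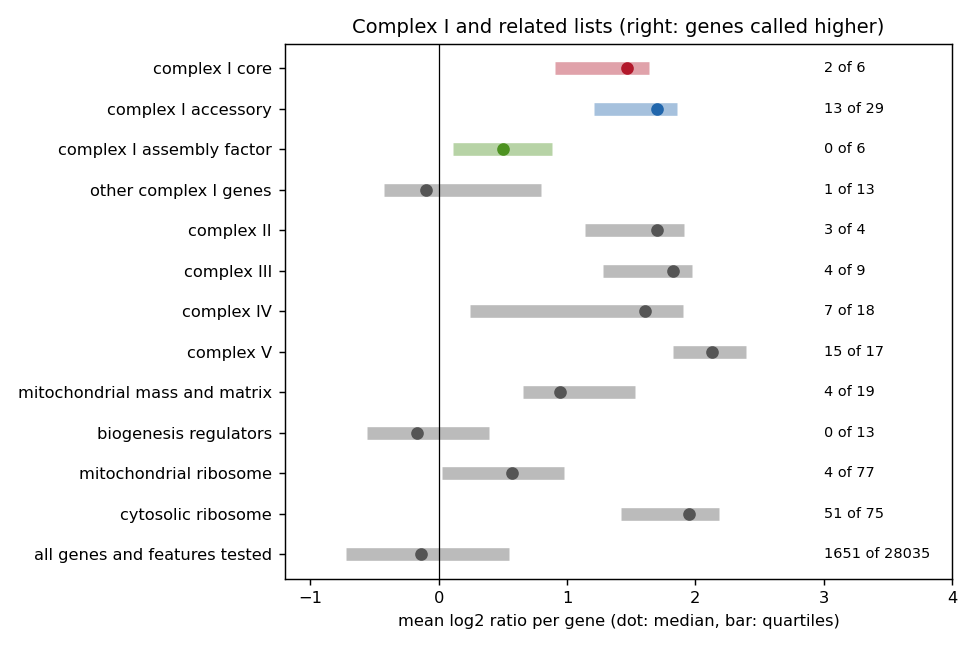
Mean log2 ratio per gene relative to the array median (horizontal axis), as the median (dot) and quartiles (bar) over the tested genes of the complex I classes and of related lists, with the number called higher at the right. The medians of complex I core (1.46) and accessory genes (1.70) lie near those of complexes II to V and under the cytosolic ribosome (1.95), on which centring turns all 3 classes of complex I below 0; assembly factors (0.50) lie near the mitochondrial ribosome (0.57).

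The median over complex I genes lay above that over everything tested in each setting tried, while the calls did not hold in each. As deposited, with no centring, their median was 0.25 and that of everything tested was -1.52. Of 42 genes 0 were called higher, beside 0.225% of everything tested. With arrays centred on ribosomal protein genes the medians were -0.52 and -2.22. In that setting 19606 of all 28035 genes and features were called lower. Among complex I genes 6 of 42 were: Ndufab1, Ndufa9, Ndufs4, Ndufs5, Ndufaf3 and Ndufaf4. With exact zeros read as ratios of 1, the median was 1.21 and 0 of 43 genes were called, beside 0.163% called higher of everything tested. Without ratios of small whole numbers, 30 genes remained and 0 were called, beside 0.555% called higher of everything tested. Their median exceeded that of everything tested by 0.41, against 1.65 with all values. Arrays 1 and 2 alone gave a median of 2.15 and 15 calls of 42, beside 5.24% of everything tested. Arrays 3 to 5 alone gave 1.12 and 0 calls of 38, beside 0 of 12689 over everything tested.

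**Figure D5:**
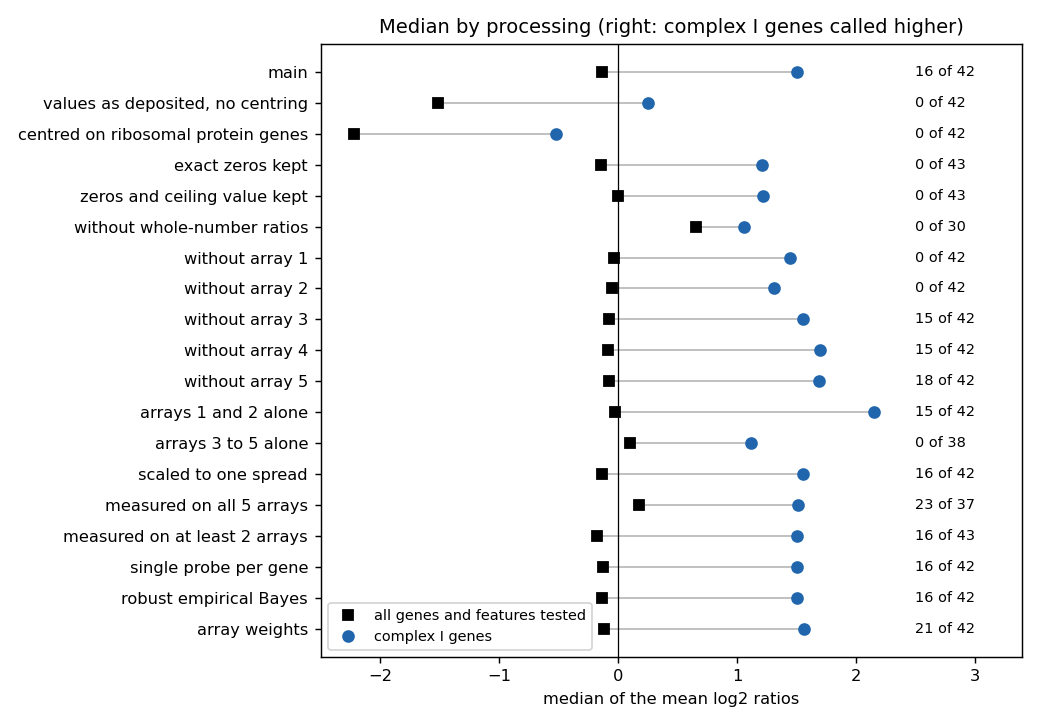
Median of the mean log2 ratios (horizontal axis) over complex I genes (circles) and over all genes and features tested (squares) under each processing (vertical axis), with the number of complex I genes called higher at the right. The circle lies right of the square in each setting, while its position against 0 turns on ribosomal centring (-0.52). The calls drop from 16 to 0 in 8 settings, that one included, where at most 63 genes and features were called higher over everything tested.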

How the data were processed

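The authors hybridised RNA of both groups to whole genome arrays and deposited log2 ratios of the channels for 44290 features on each of 5 arrays. Image reading, background removal and normalization are not given in the sources used here, and the number of arrays limits the precision. That the logarithm is to base 2 was read off the recurring values, and the direction is likely cocaine over saline. Exact zeros and the ceiling of 16.61, the log2 of 100000, were set to missing, each array was centred on its median, and probes of a symbol were averaged. The cause of a 0 is not stated, so that its reading as missing is a choice. Probes were named from the platform annotation (32042 with 1 symbol, 47 with several, 12201 with none), and 31906 matched a RefSeq gene of GRCm38.p6. For genes with values on 3 or more arrays, the mean log2 ratio was tested against 0, two-sided, by limma 3.58.1 (R 4.3.3) with moderated variances; p-values were adjusted by Benjamini-Hochberg over all 28035 tests and the threshold was 0.05. The fit was checked on simulated data. Named were all core genes and assembly factors, and, among accessory genes, those called, the highest, the lowest and those that differ most between arrays. The members and lists were chosen with earlier results of these data known. Tables were made with Python 3.11.15 and pandas 2.3.3. Alternatives changed the centring, the reading of zeros, the arrays, the probes and the moderation; the counts of the related lists under them were added after seeing the data.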

Additional observations from a re-analysis of the deposited data

Results flagged for a closer look

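In 1 of the 42 complex I genes tested, 1 array stood far from the other 4: Ndufb4 had a log2 ratio of 4.48 on array 2, where the nearest other array gave 1.71 and the lowest 1.15. Chance alone flags about 1 in 20 groups of this size. Without array 2, 0 of the 42 complex I genes were called, so that Ndufb4 was not called either, and 61 genes and features were called higher over everything tested.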

How the results depend on the processing

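Complex I genes called higher numbered 16. They numbered 0 with the values as deposited, with centring on ribosomal protein genes, with exact zeros kept and with zeros and the ceiling value kept. They numbered 0 also without whole-number ratios and on arrays 3 to 5 alone. Leaving out each array in turn gave 0 to 18, with 0 without array 1 or array 2. Without array 1 and without array 2 the median log2 ratio was 1.45 and 1.31, against 1.51 with all arrays. In each of these settings 25 of 42 genes were higher at an unadjusted p under 0.05 by limma. The share of everything tested at that threshold was not counted. In the settings with 0 calls, at most 63 genes and features were called higher over everything tested. Complex I genes called lower numbered 0, and 6 with centring on ribosomal protein genes, beside 19606 of all 28035 genes and features. The count stayed within 1.5 times under scaling to equal spread, robust moderation, array weights, 1 probe per gene and both other minimums of arrays. As deposited, the medians were 0.25 over all complex I genes, 0.25 over core, 0.41 over accessory and -0.73 over assembly factor genes. Centred on ribosomal protein genes they were -0.52, -0.57, -0.33 and -1.53, by construction 1 shift per array. Without whole-number ratios the accessory median exceeded the assembly factor median by 0.37 and the complex I median that of all genes by 0.41, with fewer genes tested. Arrays 1 and 2 alone gave medians of 2.15 over all and 2.34 over accessory genes, and on arrays 3 to 5 alone complex I exceeded all genes by 1.02; the cause was not tested.

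Single genes changed the sign of their mean log2 ratio as follows. As deposited, the means were Ndufaf4 -0.999, Ndufa9 -0.95, Ndufv2 -0.85, Ndufaf6 -0.78, Ndufs4 -0.76, Ndufs5 -0.68, Ndufaf5 -0.67, Ndufs1 -0.52, Ndufv3 -0.45, Ndufaf7 -0.43, Ndufa8 -0.016, Ndufb6 -0.014 and Ndufb7 -0.010. Centred on ribosomal protein genes, they were Ndufaf6 -1.89, Ndufaf4 -1.81, Ndufa9 -1.76, Ndufs4 -1.57, Ndufs5 -1.49, Ndufv2 -1.38, Ndufs1 -1.33, Ndufv3 -1.26, Ndufaf7 -1.24, Ndufaf5 -1.20, Ndufa8 -0.83, Ndufb6 -0.83, Ndufb7 -0.82, Ndufaf2 -0.77, Ndufb3 -0.62, Ndufs6 -0.61, Ndufs3 -0.61, Ndufa10 -0.58, Ndufv1 -0.52, Ndufa2 -0.52, Ndufa6 -0.48, Ndufb2 -0.40, Ndufs8 -0.34, Ndufa3 -0.33, Ndufa1 -0.29, Ndufb5 -0.26, Ndufa4 -0.25, Ndufc1 -0.23, Ndufc2 -0.23, Ndufa12 -0.22, Ndufa13 -0.21, Ndufa5 -0.21, Ndufs7 -0.12, Ndufb10 -0.076, Ndufb8 -0.043 and Ndufb4 -0.018. Leaving out each array in turn gave -0.072 (without array 3) to 0.79 for Ndufa9, -0.36 to 0.071 (without array 5) for Ndufaf3, -0.40 (without array 4) to 0.95 for Ndufaf4 and -0.87 (without array 5) to 0.86 for Ndufaf6. Ndufa9 was -0.10 without whole-number ratios and -0.006 on arrays 3 to 5 alone, where Ndufs4 was -0.049, and Ndufaf3 was 0.029 on arrays 1 and 2 alone. Ndufaf6 was -0.078 with arrays scaled and -0.24 with array weights, and Ndufs5 was -0.85 with 1 probe per gene. No other tested gene changed sign under the alternatives named here. No paired analysis was possible because the 5 arrays form 1 group and each array already sets cocaine against saline. Precision is limited by the 5 arrays, and without intensities no signal over background could be given.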
